A study of Caenorhabditis elegans with 8 samples.

Results

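PUF proteins are RNA-binding proteins that control the translation and stability of mRNAs, usually by binding UGU-containing elements in the 3′ untranslated region and recruiting deadenylases. The germ line of Caenorhabditis elegans uses many of them, from the stem cells at its distal end to the growing oocytes at its proximal end. The 10 genes described here are fbf-1, fbf-2, puf-3, puf-5, puf-6, puf-7, puf-8, puf-9, puf-11 and puf-12, taken by symbol from a table of 16031 genes. All 10 were in the table, and all 10 were tested in both comparisons described below.

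The question was which mRNAs come down with the oocyte RNA-binding proteins OMA-1 and LIN-41. OMA-1 is a zinc finger protein that acts in oocyte maturation, and LIN-41 is a TRIM-NHL protein that holds back maturation in growing oocytes. RNA was sequenced in 8 libraries in 6 groups: 2 immunoprecipitates (IPs) of OMA-1, 2 of LIN-41, and from each strain 1 lysate depleted of ribosomal RNA and 1 lysate without depletion. The OMA-1 libraries came from fog-1(q253ts); oma-1(zu405te33) animals carrying the transgene tnIs17, in which the oma-1 promoter drives OMA-1 fused to an S tag, a TEV site and GFP beside an unc-119(+) rescue gene. The LIN-41 libraries came from lin-41(tn1541) fog-1(q253ts) animals, in which GFP, a TEV site and an S tag are inserted in the endogenous lin-41 gene. All groups thus carried fog-1(q253ts), a temperature-sensitive allele that makes the germ line female at 25 °C. Animals were young adults, about 48 h after feeding began at 25 °C, and the IPs used a mixture of the antibodies 12A6 and 4C9. Lysates were whole-animal, so that fewer cells of a type and less RNA per cell cannot be told apart in them. No library was labelled as a mock IP, so binding cannot be told apart from RNA that sticks nonspecifically or from a higher germline content of the IPs.

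Every FPKM value and log2 ratio below comes from the authors' deposited table, which holds 1 pooled value per kind of sample and no value for a single library, so no value has an SD. FPKM is a count of fragments per transcript length and library size, and allows levels to be compared between genes. Each log2 ratio divides an IP by the depleted lysates, pooled over both strains. The IPs were not depleted, and the depletion and the IP cannot be told apart in these ratios. The deposited baseMean, the mean scaled read count over libraries, stands for depth and ran from 640 for fbf-2 to 44919 for puf-5, against a median of 44.4 over all genes. A column of the authors' deposited table marks genes affected by low-quality or multimapping reads; it marked 69 of the 16031 genes and none of the 10. Of 5 germline and oocyte markers other than puf-5, the summed level in the authors' deposited table was 1876 FPKM with OMA-1, 2256 FPKM with LIN-41 and 1101 FPKM in the lysates, which was 0.186%, 0.296% and 0.279% of all FPKM in each. These 5 did not move alike: glh-1 had 93.8 FPKM for OMA-1, 74.1 FPKM for LIN-41 and 111 FPKM for the lysates, and pgl-1 had 150 FPKM for OMA-1, 368 FPKM for LIN-41 and 161 FPKM for the lysates, in the authors' deposited table. The 3 intestine markers summed to 702, 938 and 3120 FPKM in the same order in the authors' deposited table, and the 3 muscle markers to 378, 175 and 458 FPKM. Of 5 sperm markers 1 was analysed, spe-38, at 0.46, 0.73 and 0.08 FPKM in the authors' deposited table.

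All 10 mRNAs were present in both kinds of IP, in different proportions. The mRNAs of puf-5, puf-6 and puf-7 were 2.45 to 4.50 times as high with OMA-1 as with LIN-41, and that of fbf-2 was 1.64 times as high. The mRNAs of puf-3, puf-11, puf-9 and fbf-1 were 2.04 to 2.45 times as high with LIN-41 as with OMA-1. Neither puf-8 nor puf-12 passed the test of the difference. The authors' deposited table called 9 of the 10 genes higher than the lysates in each IP, and the same 9 in both, while 22.0% of all genes tested were called in both. puf-12 was lower in both by an approximate test. Over all genes, 28.4% of 15742 were called higher with OMA-1 and 27.2% of 13955 with LIN-41. Among the 3657 genes with a baseMean at least as high as that of fbf-2, these shares were 63.0% and 61.7%, so the count of 9 is read against those. The median log2 ratio of the 10 genes was 1.47 with OMA-1, against -0.09 over all genes tested, and 1.53 with LIN-41, against -0.04, in the authors' deposited table.

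**Figure D1:**
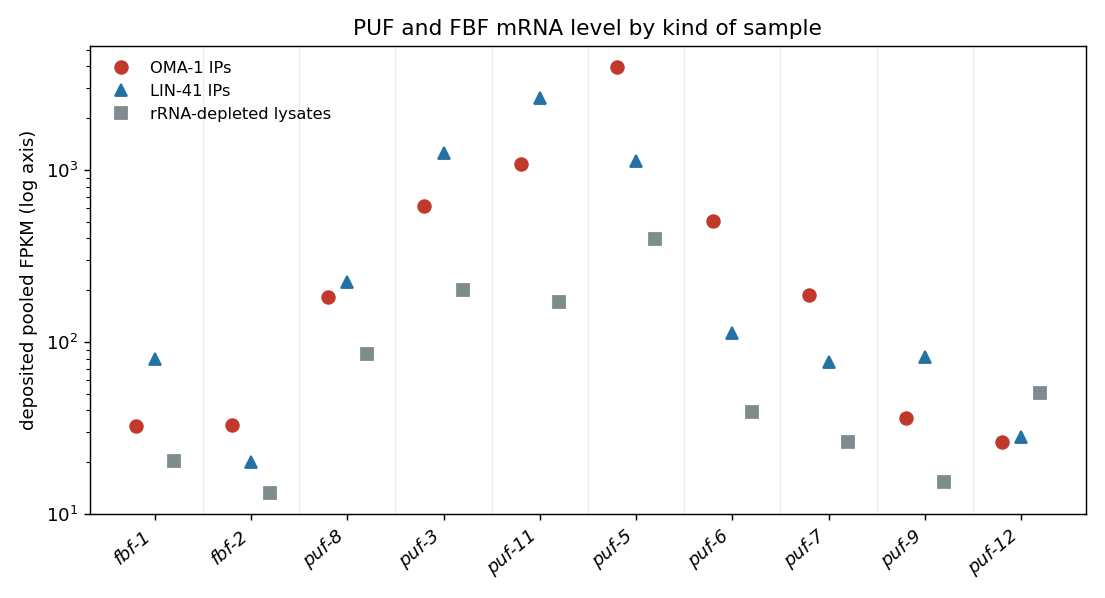
Deposited pooled FPKM (log axis) of each of the 10 genes in the OMA-1 IPs (circles), the LIN-41 IPs (triangles) and the depleted lysates (squares), with 1 pooled value per kind of sample and no error. The circle lies above the triangle for fbf-2, puf-5, puf-6 and puf-7, and the lysate lies highest only for puf-12.

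The position of a log2 ratio of 0 rests on the authors' scaling. When the FPKM columns were scaled to equal totals without the mitochondrial genes, every log2 ratio shifted, by -1.33 with OMA-1 and -0.95 with LIN-41. Calls under a changed scaling, here and below, came from an approximate test with standard errors from the deposited scaling, not from the authors. By that test 5 of the 10 genes were still called higher with OMA-1 (puf-3, puf-5, puf-6, puf-7 and puf-11). With LIN-41 it called 8 (all but fbf-2 and puf-12). The share of all genes called with equal totals is not given here, so these counts describe the 10 genes alone. The lysates cancel in the difference between the IPs, but the scaling does not: it moved by -0.38 with equal totals and, for the 10 genes, by -0.09 (puf-12) to -0.76 (puf-6) with quantile normalization. These moves changed 2 calls, those of fbf-2 and puf-8. The difference of each of the 10 genes is given below under all 3 scalings. For other genes and lists, a value holds only for the scaling named with it, or the deposited scaling where none is named.

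The genes puf-5, puf-6 and puf-7 act redundantly late in oogenesis, where their proteins repress mRNAs in growing oocytes and are needed for oocytes to form properly. puf-5 (WBGene00004241) lies on chromosome II from 8575541 to 8577787 on the plus strand in WBcel235 and encodes 553 amino acids. In the authors' deposited table it had 3957 FPKM in the OMA-1 IPs, 1123 FPKM in the LIN-41 IPs and 397 FPKM in the lysates. It was the most abundant of the 10 with OMA-1 and in the lysates, and came after puf-11 and puf-3 with LIN-41. puf-6 (WBGene00004242; II, 13039792 to 13043445, minus strand) and puf-7 (WBGene00004243; IV, 5486713 to 5490322, plus strand) lie on different chromosomes and each encode 485 amino acids. The authors' deposited table gave puf-6 508 FPKM with OMA-1, 113 FPKM with LIN-41 and 39.0 FPKM in the lysates. For puf-7 the authors' deposited table listed 188 FPKM with OMA-1, 76.6 FPKM with LIN-41 and 26.3 FPKM in the lysates. All 3 mRNAs were thus highest with OMA-1 and lowest in the lysates, over a wide range of levels.

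With OMA-1, the authors' deposited table gave log2 ratios of 3.70 for puf-6, 3.31 for puf-5 and 2.83 for puf-7, rises of 13.0-, 9.93- and 7.11-fold. Their authors' deposited adjusted p-values were 9.0e-246, 5.8e-172 and 1.9e-135, and puf-6 ranked 691 of 15742 genes by the log2 ratio. With LIN-41 the deposited log2 ratios of the same genes were close together, 1.53, 1.50 and 1.54, as the authors' deposited table lists them. The difference between the IPs was tested with an approximate two-sided normal test, using standard errors (SE) recovered from the deposited adjusted p-values and Benjamini-Hochberg adjustment over 13955 genes. By that test 19.6% of all genes were higher with OMA-1 and 12.3% higher with LIN-41; among genes at least as deep as fbf-2 these shares were 44.2% and 26.9%. This OMA-1 minus LIN-41 difference of log2 ratios was 2.17 ± 0.157 (approximate SE) for puf-6, with an adjusted p of 6.0e-42. For puf-5 it was 1.81 ± 0.167 (adjusted p = 3.5e-26), and for puf-7 it was 1.29 ± 0.163 (adjusted p = 1.9e-14). All 3 stayed higher with OMA-1 under equal totals, at 1.79, 1.44 and 0.91, and under quantile normalization, at 1.41, 1.13 and 0.74.

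Within the group, puf-6 leaned further towards OMA-1 than puf-7. Its OMA-1 minus LIN-41 difference exceeded that of puf-7 by 0.88, with an approximate 95% interval from 0.43 to 1.32; it was 0.67 under quantile normalization. In FPKM, puf-6 was 2.70 times puf-7 with OMA-1, 1.47 times with LIN-41 and 1.48 times in the lysates. Between puf-6 and puf-5 the interval, from -0.09 to 0.81, included 0. The puf-7 difference minus that of puf-5 was -0.52, with an interval from -0.98 to -0.06, and -0.39 under quantile normalization. The pair puf-6 and puf-7 may share reads, and although the deposited flag for multimapping was not set for either, their separate values are less certain than their common direction.

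**Figure D2:**
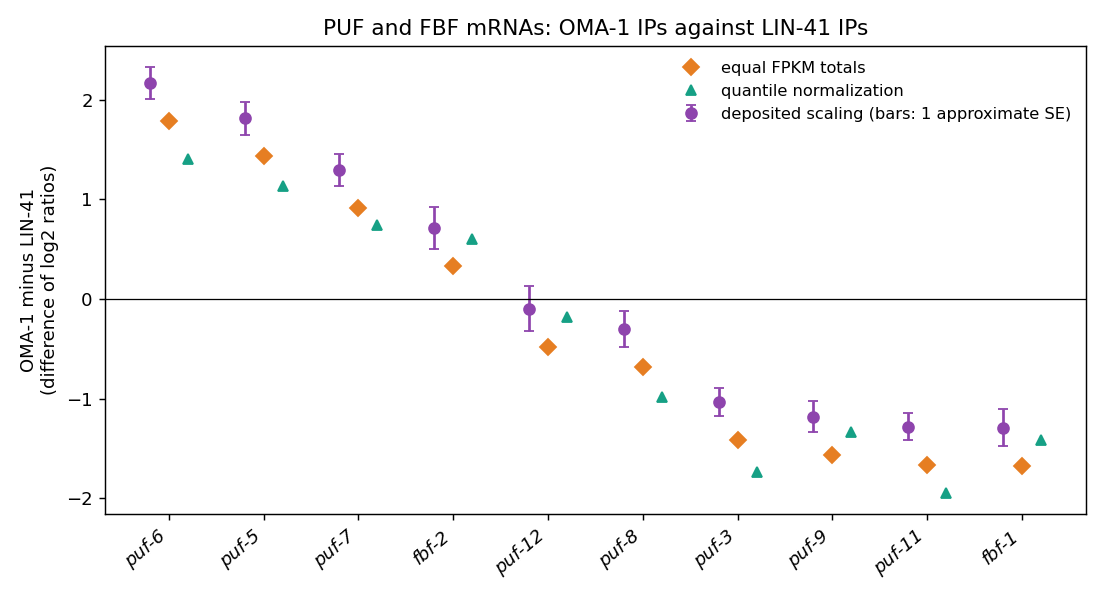
OMA-1 minus LIN-41 difference of log2 ratios for each gene, with values above 0 higher with OMA-1; circles with bars of 1 approximate SE use the deposited scaling, diamonds equal FPKM totals and triangles quantile normalization. The genes puf-6, puf-5, puf-7 and fbf-2 lie above 0 under all 3 scalings, and puf-12, puf-8, puf-3, puf-9, puf-11 and fbf-1 below 0. By the approximate test puf-12 passed under none of them, puf-8 did not pass under the deposited scaling and fbf-2 did not with equal totals.

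The paralogs puf-3 and puf-11 encode similar proteins that act in oocytes and early embryos and also join the FBF proteins in keeping germline stem cells. puf-11 (WBGene00022257; IV, 6421585 to 6423497, plus strand) encodes 505 amino acids, and puf-3 (WBGene00004239; IV, 13510307 to 13512162, minus strand) encodes 502. In the LIN-41 IPs puf-11 was the most abundant of the 10 mRNAs: the authors' deposited table gave 1081 FPKM with OMA-1, 2633 FPKM with LIN-41 and 171 FPKM in the lysates. The authors' deposited table gave puf-3 615 FPKM with OMA-1, 1259 FPKM with LIN-41 and 199 FPKM in the lysates. Both mRNAs were highest with LIN-41 and lowest in the lysates, the reverse order of the IPs from puf-5, puf-6 and puf-7. puf-3 lies within Y45F10A.3, a gene on the opposite strand, with no overlap of exons. That gene had 0.81, 1.81 and 1.96 FPKM in the OMA-1 IPs, the LIN-41 IPs and the lysates in the authors' deposited table.

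Set against the lysates, puf-11 had an authors' deposited log2 ratio of 3.94 with LIN-41, a 15.3-fold rise that ranked 163 of 13955 genes, and puf-3 had one of 2.66, a 6.30-fold rise. With OMA-1 the authors' deposited table gave log2 ratios of 2.65 for puf-11 and 1.62 for puf-3. Under quantile normalization the OMA-1 log2 ratio of puf-3 turned to -0.24, called lower by the approximate test, while that of puf-11 was 0.85. The deposited adjusted p was stored as 0 for puf-11 with LIN-41 and was 2.8e-149 for puf-3 in the authors' deposited table. For puf-11 the OMA-1 minus LIN-41 difference came to -1.28 ± 0.134 (adjusted p = 1.1e-20 by the approximate test), with the LIN-41 part of the error taken from the OMA-1 comparison. For puf-3 the difference was -1.03 ± 0.144 (adjusted p = 6.6e-12 by the approximate test). Both lay further below 0 under equal totals, at -1.67 and -1.42, and under quantile normalization, at -1.95 and -1.74. The puf-3 and puf-11 differences were 0.25 apart, with an approximate 95% interval from -0.13 to 0.63. Whether these paralogs share reads was not tested, and the deposited flag for multimapping was set for neither. The difference of puf-5 exceeded that of puf-3 by 2.85 (interval 2.41 to 3.28) and that of puf-11 by 3.10 (interval 2.68 to 3.51). Under quantile normalization these gaps were 2.87 and 3.08, and equal totals cancel in them.

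The opposite leanings changed which PUF mRNA dominated. The 3 genes puf-5, puf-6 and puf-7 made up 69.9% of the summed FPKM of the 10 genes with OMA-1, 23.3% with LIN-41 and 45.4% in the lysates. The pair puf-3 and puf-11 made up 25.5% with OMA-1, 69.0% with LIN-41 and 36.4% in the lysates. puf-5 alone held 59.4% with OMA-1 and puf-11 alone 46.7% with LIN-41. The 10 genes together summed to 6659 FPKM with OMA-1, 5638 FPKM with LIN-41 and 1017 FPKM in the lysates, which was 0.662%, 0.740% and 0.258% of all FPKM in each. Shares within the 10 genes do not depend on the total of a column.

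**Figure D3:**
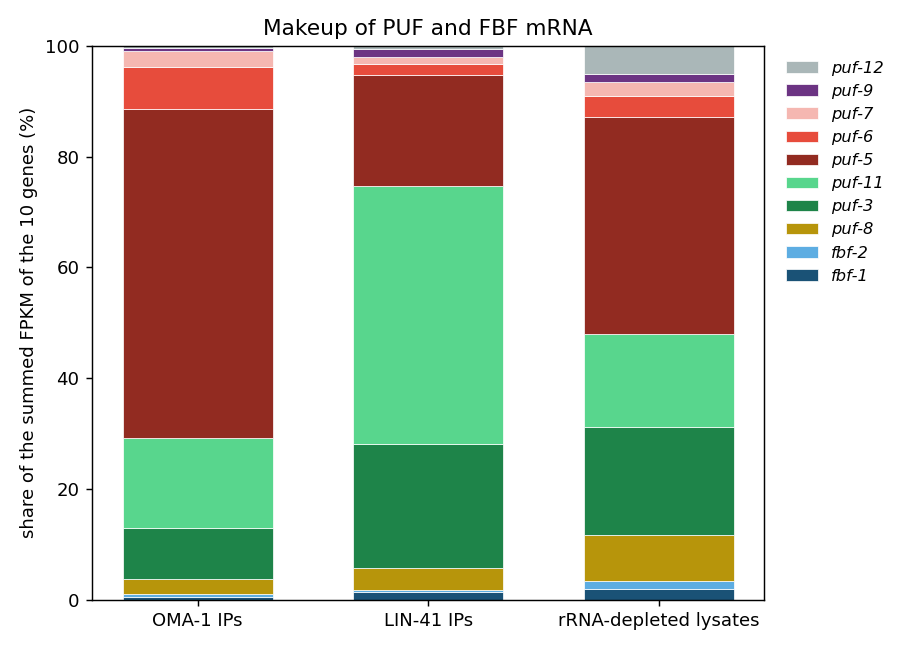
Share of each gene in the summed pooled FPKM of the 10 genes (%), as stacked bars for the OMA-1 IPs, the LIN-41 IPs and the depleted lysates, without error since each bar is 1 pooled value. The red blocks of puf-5, puf-6 and puf-7 fill 69.9% of the OMA-1 bar and the green blocks of puf-3 and puf-11 fill 69.0% of the LIN-41 bar.

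FBF-1 and FBF-2 are named for binding fem-3 mRNA; they keep germline stem cells from entering meiosis and promote the switch to oogenesis. Their genes are neighbours on chromosome II, both on the minus strand and 8.02 kb apart: fbf-1 (WBGene00001401) from 6078263 to 6080843, encoding 614 amino acids, and fbf-2 (WBGene00001402) from 6088863 to 6091480, encoding 632. Both were among the least abundant of the 10. The authors' deposited table gave fbf-1 32.4 FPKM with OMA-1, 79.5 FPKM with LIN-41 and 20.2 FPKM in the lysates. For fbf-2 the authors' deposited table gave 32.9 FPKM with OMA-1, 20.0 FPKM with LIN-41 and 13.2 FPKM in the lysates. The paralogs were therefore level with each other in the OMA-1 IPs, while fbf-1 was 3.97 times fbf-2 in the LIN-41 IPs and 1.53 times in the lysates.

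The authors' deposited log2 ratio of fbf-1 was 0.68 with OMA-1 (adjusted p = 5.1e-07) and 1.97 with LIN-41 (adjusted p = 6.0e-52). The authors' deposited log2 ratio of fbf-2 was 1.31 with OMA-1 (adjusted p = 1.4e-18) and 0.60 with LIN-41 (adjusted p = 0.00018). Taken as OMA-1 minus LIN-41, the difference was -1.29 ± 0.184 for fbf-1 (adjusted p = 1.9e-11 by the approximate test) and 0.71 ± 0.210 for fbf-2 (adjusted p = 0.0028 by the approximate test). These differences were 2.01 apart (approximate 95% interval 1.46 to 2.55), and 2.02 under quantile normalization. With equal totals the fbf-2 difference of 0.34 no longer passed the test (adjusted p = 0.225 by the approximate test), while fbf-1 stayed at -1.68; with quantile normalization both passed, fbf-2 at 0.60 and fbf-1 at -1.42. The OMA-1 log2 ratios of fbf-1 (-0.65) and fbf-2 (-0.02) and the LIN-41 log2 ratio of fbf-2 (-0.35) fell below 0 with equal totals. With quantile normalization these 3 ratios stayed above 0, at 0.36, 1.00 and 0.40. Equal totals cancel in the gap between the paralogs and are no test of it. Whether fbf-1 and fbf-2 share reads was not tested, and the deposited flag for multimapping was set for neither. The enrichment of either over the lysates, apart from fbf-1 with LIN-41, depended on the scaling.

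**Figure D4:**
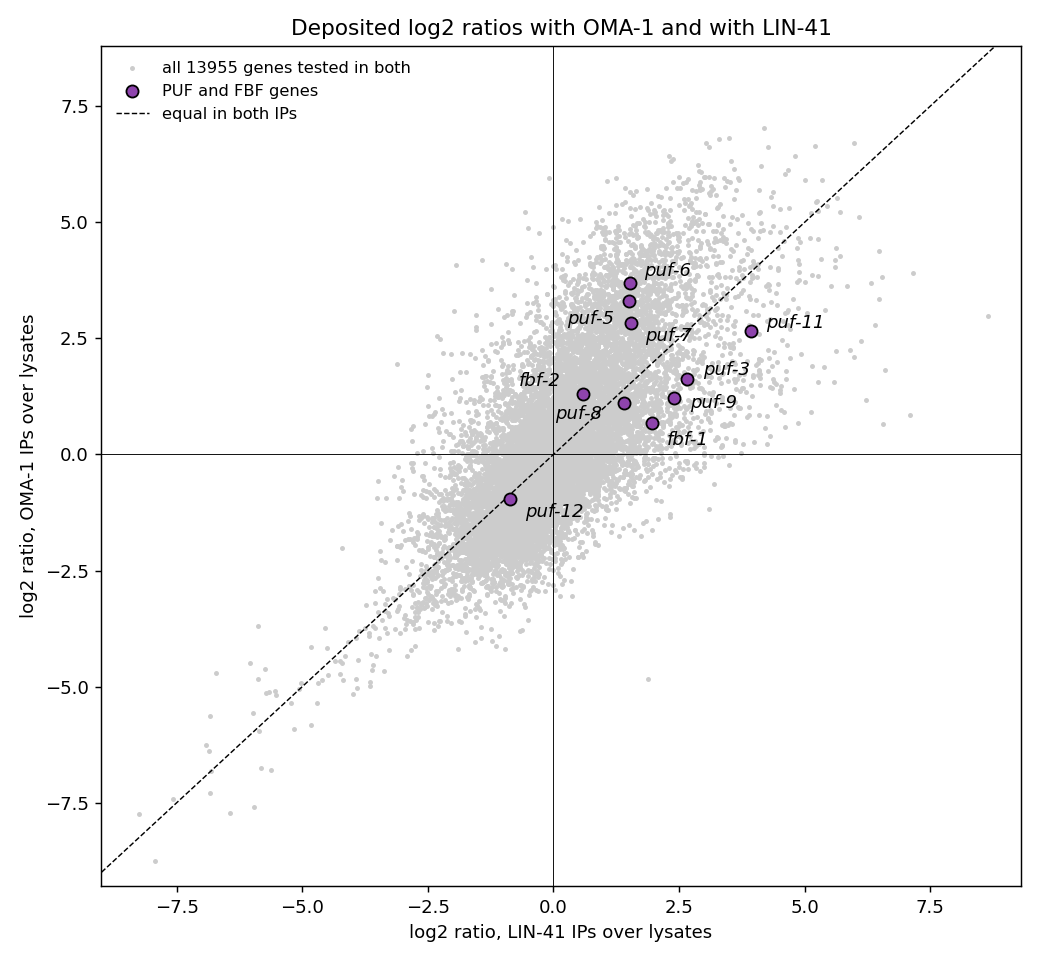
Deposited log2 ratio over the lysates with OMA-1 (vertical) against LIN-41 (horizontal), with the 13955 genes tested in both as grey points, the 10 PUF and FBF genes as labelled purple points and the dashed line where both are equal. The points of puf-5, puf-6 and puf-7 share a LIN-41 ratio of 1.50 to 1.54 and stand well above the line, while puf-3, puf-9, puf-11 and fbf-1 lie below it; both axes share the lysates.

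PUF-8 acts in germline stem cells and in the fate of spermatocytes. The authors' deposited table gave puf-8 (WBGene00004244; II, 7296110 to 7298247, minus strand; 535 amino acids) 183 FPKM with OMA-1, 225 FPKM with LIN-41 and 84.8 FPKM in the lysates. In the authors' deposited table its log2 ratio was 1.10 for OMA-1 and 1.40 for LIN-41, with adjusted p-values of 3.5e-17 and 7.8e-27. Its OMA-1 minus LIN-41 difference of -0.30 ± 0.182 did not pass the approximate test (adjusted p = 0.245; 95% interval -0.65 to 0.06). It passed with equal totals (-0.68) and with quantile normalization (-0.98), both towards LIN-41. The OMA-1 log2 ratio of puf-8 turned to -0.23 and -0.55 under those scalings.

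PUF-9 is known mainly from larval development, where it acts in the hypodermis and represses hbl-1. Its mRNA was higher with LIN-41 than with OMA-1. The authors' deposited table gave puf-9 (WBGene00004245; X, 5841592 to 5845987, plus strand; 703 amino acids) 36.1 FPKM with OMA-1, 81.8 FPKM with LIN-41 and 15.4 FPKM in the lysates. The authors' deposited log2 ratio was 1.23 in the OMA-1 comparison and 2.41 in the LIN-41 comparison. The difference between the IPs came to -1.18 ± 0.155 (adjusted p = 2.8e-13 by the approximate test), and it was -1.56 with equal totals and -1.33 with quantile normalization.

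PUF-12 is the most divergent of the 10, related to the nucleolar PUF proteins that act in ribosome assembly in yeast. Under the deposited scaling it was the only gene of the 10 with less mRNA in the IPs than in the lysates. The authors' deposited table gave puf-12 (WBGene00014165; II, 10100310 to 10103061, plus strand; 766 amino acids) 26.1 FPKM with OMA-1, 28.0 FPKM with LIN-41 and 50.7 FPKM in the lysates. Its authors' deposited log2 ratio was -0.95 for OMA-1 and -0.86 for LIN-41, and the deposited test, which looked for enrichment alone, gave an adjusted p of 1 for each. By an approximate one-sided normal test for lower values, the adjusted p was 8.2e-09 with OMA-1 and 1.0e-06 with LIN-41, where 18.8% and 14.0% of all genes were lower. The difference between the IPs of -0.10 ± 0.224 did not pass (adjusted p = 0.851 by the approximate test; 95% interval -0.54 to 0.34), nor did it with equal totals (-0.48) or quantile normalization (-0.18). Its SE was taken from genes of like baseMean, as no SE could be recovered for puf-12. A neighbour on the opposite strand, ZK945.4, overlaps puf-12 by 91 bases and was higher in both IPs, at 22.2 FPKM for OMA-1, 11.3 FPKM for LIN-41 and 4.14 FPKM for the lysates in the authors' deposited table; whether the counting used strand is not given in the sources used here.

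An earlier study's OMA-1 IP, divided by the same depleted lysates, gives these genes a further OMA-1 log2 ratio with no p-value. In the authors' deposited table that earlier log2 ratio was 4.02 for puf-6, 4.00 for puf-5 and 3.49 for puf-7, again the 3 highest of the 10. It was 2.27 for puf-11, 1.99 for fbf-2, 1.66 for puf-8, 1.61 for puf-3, 1.59 for puf-9, 0.97 for fbf-1 and -1.33 for puf-12 in the authors' deposited table. The present OMA-1 log2 ratio minus the earlier one ran from -0.69 for puf-5 to 0.39 for puf-11. In the earlier IP too, fbf-2 stood above fbf-1. Since the OMA-1 IPs of both studies are divided by the same lysates, their likeness was not tested.

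The authors' deposited table also sets gonads of fem-3(q96gf) animals, which make sperm, against gonads of fog-2(q71) females, which make oocytes, from another study. Of the 10 genes, 7 were lower in the spermatogenic gonads and 2 higher in the authors' deposited table at an adjusted p below 0.05, against 28.2% and 27.6% of 14888 genes tested. For the gonads the shares among equally deep genes are not given here, so these counts describe the 10 genes alone. The log2 ratio of fem-3(q96gf) over fog-2(q71) in the authors' deposited table was -3.63 for puf-5, -2.98 for puf-3, -2.43 for puf-11, -2.21 for puf-7 and -2.05 for puf-6. These 5 mRNAs were therefore 4.13 to 12.3 times as high in oogenic gonads, whichever IP they leaned towards. The authors' deposited log2 ratio was smaller for puf-9 (-0.91) and puf-8 (-0.83), and fbf-1, at 0.02, did not pass (adjusted p = 0.908 in the authors' deposited table). The 2 genes higher in spermatogenic gonads were fbf-2 (0.44, adjusted p = 0.0015) and puf-12 (0.49, adjusted p = 0.00046) in the authors' deposited table.

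**Figure D5:**
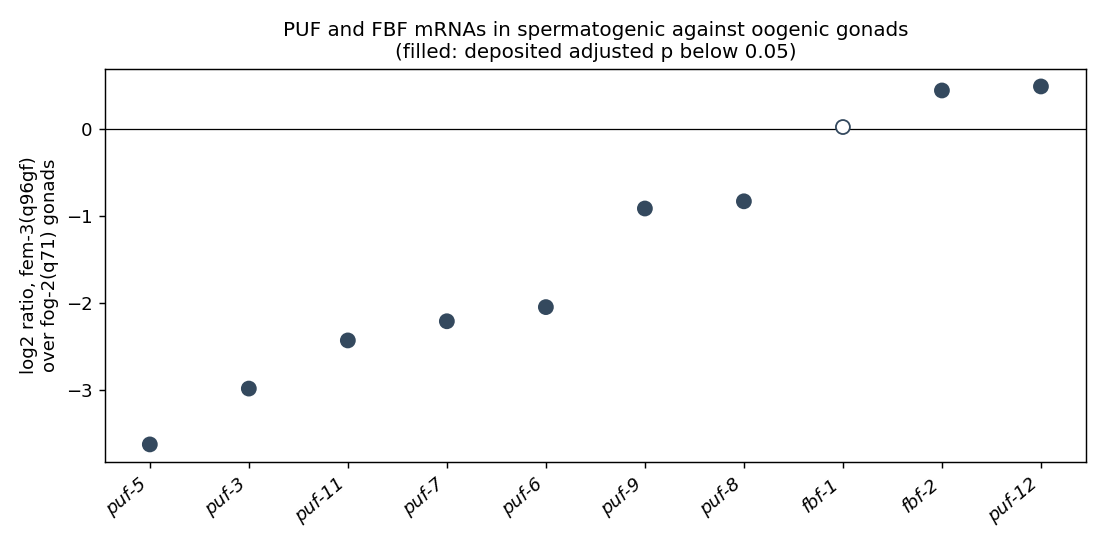
Deposited log2 ratio of fem-3(q96gf) over fog-2(q71) gonads for each gene, lowest to highest, with values below 0 higher in oogenic gonads and filled points for a deposited adjusted p below 0.05. The 5 genes puf-5, puf-3, puf-11, puf-7 and puf-6 lie between -3.63 and -2.05, and fbf-1, the open point, lies at 0.02.

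Other genes of PUF regulation were taken from lists of partners and reported targets. Their counts under the deposited scaling are read against 28.4% of all genes called higher with OMA-1 and 27.2% with LIN-41. Among genes at least as deep as fbf-2 these shares were 63.0% and 61.7%, though some listed genes, such as hbl-1, are less deep. For the difference, 19.6% of all genes were called towards OMA-1 and 12.3% towards LIN-41, and 44.2% and 26.9% of the deep genes. Nanos proteins are the classical partners of PUF proteins. All 3 nos genes were higher with OMA-1 and 2 of 3 with LIN-41 by the calls in the authors' deposited table, where nos-2 had log2 ratios of 3.71 and 5.01 and nos-1 at 3.04 and 5.06. By the approximate test both were higher with LIN-41, with OMA-1 minus LIN-41 differences of -1.30 for nos-2 and -2.01 for nos-1. nos-3, at 0.29 for OMA-1 and 0.02 for LIN-41 in the authors' deposited table, did not pass the test of the difference. Equal totals turned nos-3 lower in both, at -1.04 and -0.93.

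The 11 partner genes were mixed. By the calls in the authors' deposited table, 7 were higher in the OMA-1 IPs and 5 in the LIN-41 IPs; 3 and 2 were lower by the approximate test, and with equal totals 3 and 3 were higher and 7 and 8 lower. The highest in both was sygl-1, a Notch target that works with FBF in stem cells, whose log2 ratio in the authors' deposited table was 6.63 in the OMA-1 IPs and 4.28 in the LIN-41 IPs. The lowest was gld-2, a poly(A) polymerase, with OMA-1 (-0.83) and csr-1, an Argonaute, with LIN-41 (-1.03) in the authors' deposited table.

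Of 16 reported FBF target mRNAs, a list that includes fbf-1 and fbf-2, 14 were called in each IP in the authors' deposited table, and with equal totals 6 and 11 were higher and 6 and 5 lower. The median log2 ratio was 1.23 with OMA-1 and 1.72 with LIN-41 in the authors' deposited table. The highest with OMA-1 was gld-1, a translational repressor, at 4.37, and the highest with LIN-41 was fem-3, a sex determination gene, at 3.98, in the authors' deposited table. The lowest in both was gld-3, at -0.53 with OMA-1 and 0.04 with LIN-41 in the authors' deposited table. By the approximate test of the difference 7 of the 16 were higher with OMA-1 and 4 with LIN-41, but with equal totals 2 and 6, so the split of this list follows the scaling. gld-1 (2.53, 2.15 with equal totals and 2.74 with quantile normalization) was higher with OMA-1 under all 3 scalings. fem-3 did not pass under the deposited scaling (0.10) or with equal totals (-0.28). With quantile normalization it passed towards LIN-41 (-0.71, adjusted p = 1.8e-05 by the approximate test).

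The 3 reported targets of other PUF proteins were all called higher with both IPs in the authors' deposited table. The homeobox gene pal-1, a PUF-8 target, had the highest log2 ratios, 3.37 for OMA-1 and 2.097 for LIN-41, in the authors' deposited table. The lowest were hbl-1, a PUF-9 target, with OMA-1 (0.89) and the Notch receptor gene glp-1 with LIN-41 (0.98) in the authors' deposited table. With equal totals the approximate test called 2 of the 3 higher in the OMA-1 IPs and 1 in the LIN-41 IPs, where the OMA-1 log2 ratio of hbl-1 was -0.43. Of 14 other RNA-binding regulators of oocytes and embryos, the authors' deposited table has 12 called in the OMA-1 IPs and 14 in the LIN-41 IPs; with equal totals 7 and 12 were higher, and 3 and 2 lower. Their OMA-1 minus LIN-41 difference was called towards OMA-1 in 5 and towards LIN-41 in 7, against 4 and 8 with equal totals. Quantile normalization gave 2 and 10. Under it 5 of the 14 were higher and 6 lower in the OMA-1 IPs, and 11 higher and 2 lower in the LIN-41 IPs. The counts for this list thus depended on the scaling. The extremes with LIN-41 were spn-4 (6.21) and rnp-8 (0.46), and with OMA-1 gld-1 (4.37) and rnp-8 (-0.14), in the authors' deposited table.

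The table lists a further pair of PUF genes as pseudogenes. The authors' deposited table gave puf-10 103 FPKM with OMA-1, 56.9 FPKM with LIN-41 and 20.2 FPKM in the lysates, and called it higher with both. Its OMA-1 minus LIN-41 difference was 0.86 ± 0.183, on the side of puf-5, puf-6 and puf-7, and 0.48 with equal totals, both past the approximate test. puf-4 was at 0.59, 0.58 and 0.81 FPKM in the authors' deposited table and was called in neither IP. Whether reads from a coding paralog contribute to puf-10 was not tested.

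Under the deposited scaling puf-6 had the largest difference between the IPs of the 10, while with quantile normalization those of puf-11 (-1.95) and puf-3 (-1.74) were larger in size than that of puf-6 (1.41). Among 6767 other genes with a baseMean of at least 100, the 5 with log2 ratios closest to those of puf-6, by Euclidean distance over its OMA-1 and LIN-41 values, were etr-1, Y39A1A.20, cpt-6, Y48G1C.9 and zhp-3, at distances of 0.03 to 0.07. Their log2 ratios in the authors' deposited table ran from 3.64 to 3.77 with OMA-1 and from 1.48 to 1.56 with LIN-41.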

How the data were processed

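Per the submitters' processing notes, WBcel235 was the build and DESeq2 1.12.3, SAMtools 1.0, STAR 2.4.2a and Trimmomatic 0.32 were used, with no roles given. How reads were counted, and on which strand, is not given in the sources used here. Per the file headers, the authors deposited log2 ratios over the depleted lysates, adjusted p-values, pooled FPKM and baseMean, a mean read-count signal; 4 more columns, from other studies, were left out. The depth of each library is unknown. The deposited test was one-sided: all 8208 tested genes not above 0 with OMA-1, and all 7187 with LIN-41, carry an adjusted p of 1.

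Under the deposited scaling, calls of enrichment are the authors' (adjusted p below 0.05). Calls of enrichment under any changed setting came from an approximate one-sided normal test, with SEs recovered under the deposited scaling. For lower values and differences between IPs, the Benjamini-Hochberg steps were undone, and dividing the log2 ratio by the normal z of the raw p gave an SE, recovered in both comparisons for 8 of the 10 genes. Otherwise the SE of the other IP served, or the 95th percentile of the SEs of the 201 genes nearest by baseMean. A difference's error is the root of the summed squares, too wide because it counts the shared lysates. Data were simulated for the OMA-1 minus LIN-41 difference over 13955 genes. The test found 52.7% of the 150 genes with a 4-fold change and 28.0% of the 50 with a 2-fold change. At a baseMean of at least 600, as all 10 genes have, it found 97.0% of 33 and 100% of 10. It called 0 of 13755 unchanged genes. In the real data 19.6% of genes were called towards OMA-1 and 12.3% towards LIN-41, far more than were given a change in the simulated data. As the error is too wide, the 0 does not measure false calls in the real data. Whether the recovered SEs or the scaling are right was not tested. P-values rest on 2 libraries per IP and 1 depleted lysate per strain, and the labels do not tie libraries to separate cultures. The depleted lysates thus differ in genotype, and how the spread between libraries was estimated is not given in the sources used here. Strain names differ between the samples of 1 genotype; samples were grouped by title and genotype. Gene models are Ensembl release 115. All 10 genes were named, as were the highest and lowest of each pathway list and the 5 genes nearest to puf-6. Members and lists were chosen with earlier results of these data known. Python 3.11.15 with SciPy was used.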

Additional observations from a re-analysis of the deposited data

Results flagged for a closer look

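For 8 of the 10 genes the effect of IP over lysate differed between OMA-1 and LIN-41 by the approximate test of the difference itself, under the deposited scaling. Such differences were common: 19.6% of all genes tested were higher with OMA-1 and 12.3% higher with LIN-41, and 44.2% and 26.9% among genes at least as deep as fbf-2, so the count is near the share of equally deep genes. As OMA-1 minus LIN-41, it was 2.17 for puf-6, 1.81 for puf-5, 1.29 for puf-7 and 0.71 for fbf-2, which did not pass with equal totals (adjusted p = 0.225 by the approximate test). It was -1.03 for puf-3, -1.18 for puf-9, -1.28 for puf-11 and -1.29 for fbf-1. The neighbouring paralogs fbf-1 and fbf-2 are on opposite sides, and whether they share reads was not tested. Each IP was made from a different strain, so protein and strain cannot be told apart.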

How the results depend on the processing

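The settings tried were a pseudocount of 0.1 or 1 FPKM, an adjusted p below 0.01, a baseMean of at least 10 and SEs at the local 95th percentile. Calls under these settings, and under the scalings, came from the approximate test and not from the deposited adjusted p. These settings left the direction and the call of each of the 10 genes as reported in both IPs and, where run, in the difference. The scalings did not. With equal FPKM totals 5 genes in place of 9 were higher with OMA-1 and 2 in place of 1 lower, and 2 in place of 1 were lower with LIN-41; log2 ratios below 0 were then -0.65 (fbf-1), -0.018 (fbf-2), -0.23 (puf-8) and -0.11 (puf-9) with OMA-1 and -0.35 (fbf-2) with LIN-41. With quantile normalization 3 genes in place of 1 were lower with OMA-1, among them puf-8 (-0.55) and puf-3 (-0.24). In the difference, 3 genes were higher with OMA-1 with equal totals and 4 with quantile normalization, and 5 with LIN-41 under both. Shares of all genes called under these 2 scalings are not given, so the counts cannot be set against them. The shift of all ratios follows from the construction of the equal totals; which scaling is nearer to the cells was not tested. No paired analysis was possible because the deposited table holds no values for single libraries, and leaving out each replicate was not run for the same reason.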
